A study of Homo sapiens with 2 samples.

Results

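The genes described here encode collagens, laminins, matrix glycoproteins and the enzymes that modify collagen, the proteins from which cells build their extracellular scaffold. The 37 genes were chosen by name, as 15 collagen genes, 7 laminin chains, 10 glycoproteins and 5 collagen-modifying enzymes, out of 19775 genes represented on the arrays. They were measured in MDA-MB-231, an established human cell line from a triple-negative breast cancer whose cells are of mesenchymal type. One stable line, the control, was infected with virus carrying an empty vector (MB231/EV), and the other carried virus that overexpressed the microRNA miR-203 (MB231/miR-203). Both were grown in DMEM with 10% FBS and 5% CO2, and each was hybridised to 1 Affymetrix array from 6 µg of total RNA. The labels do not say whether each line was 1 clone or a pool. The comparison asked which genes differ when miR-203 is overexpressed.

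Collagens are triple helices of 3 chains. Fibrillar collagens give tissues their tensile strength, while type IV collagen and laminins form the sheet-like basement membrane on which epithelial cells sit. Glycoproteins such as fibronectin, thrombospondin and tenascin link these scaffolds to cell-surface receptors, mainly integrins, and prolyl and lysyl hydroxylases prepare collagen chains inside the cell before secretion. In breast tumours matrix is made by fibroblasts and also by the cancer cells, and carcinoma cells of mesenchymal type are known for secreting fibronectin.

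A microRNA pairs with transcripts mainly through its seed, bases 2 to 8 from its start, and lowers their stability or translation. The mature strand of the overexpressed microRNA is shown because the lines were made to differ in this microRNA. The RefSeq sequence of the MIR203A locus (GRCh38.p14, chr14:104117469-104117490, plus strand) has the seed in capitals.
hsa-miR-203a-3p: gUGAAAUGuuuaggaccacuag
The labels name miR-203 without a strand, and no probe set was annotated to its gene (0 of 54675), so its level was not measured on these arrays. Transcript sequences of the matrix genes were not used here, and their seed sites were not searched.

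The 2 arrays had medians of 5.38 and 5.38 on the log2 scale. The mesenchymal markers VIM, CD44, CAV1 and AXL lay between 11.70 and 13.90 on the control array. PGR and CDH1 were under the filter level in both lines, while the brightest probe sets of ESR1 (6.27 and 6.30) and EPCAM (8.35 and 8.25) lay above it. The 3' minus 5' difference, a sign of RNA integrity, was 1.38 and 1.49 for ACTB and 0.11 and 0.049 for GAPDH in the control and miR-203 lines. Of 6 fibroblast markers, PDGFRB, DCN and THY1 passed the filter and PDGFRA, LUM and FAP did not. Their summed linear level, as log2, was 8.62 in the control line and 8.27 in the miR-203 line, with 2 markers higher and 4 lower, of which THY1 differed most, at -0.84. The corresponding sums were 7.79 and 7.65 for 4 endothelial markers and 6.82 and 6.78 for 3 blood cell markers. The part of these markers and of RNA integrity in the matrix gene differences was not tested.

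Within the list, which was chosen with results known, several matrix glycoproteins and collagen-modifying enzymes had higher values in the miR-203 line. The listed collagens and laminins were split between higher and lower. Reelin was the only one of the measured matrix genes past 2-fold, and fibronectin came next at 1.49-fold. None of the 28 measured genes of the list was as much as 1.5-fold lower (0 of 28), where 1.08% of all measured genes were. At that share a count of 0 among 28 genes says little. LOXL1, a lysyl oxidase outside the list, was 1.77-fold lower by its 1 passing probe set. Outside the list, 8 of 21 other matrix glycoproteins and 8 of 19 other collagen biosynthesis genes had higher values in the miR-203 line. Each gene was read from the brightest probe set annotated to it alone, and counted as measured if the higher of its 2 values reached 5.37, the median over all probe sets. A difference is the log2 value of miR-203 minus that of the empty vector throughout. With a single array for each line there are no replicates and no p-values, and a difference includes culture, RNA preparation and hybridisation. In bulk RNA, fewer producing cells and less RNA per cell cannot be told apart.

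Of the 37 genes, 36 had such a probe set and 28 were measured. LAMA3 was not analysed here. Among the 28, the difference was above 0 for 18 (64.3%) and below 0 for 10, where 52.1% of all 13311 measured genes lay above 0 and 45.8% below. The 18 include COL5A2, which passed the filter only through the miR-203 array and so had to lie above 0. The median difference was 0.20, with an interquartile range from -0.035 to 0.41, against a median of 0.013 and a range from -0.11 to 0.15 for all measured genes. At 2-fold, 1 of the 28 was higher and 0 were lower, where 0.105% of all measured genes were higher and 0.27% lower. At 1.5-fold the counts were again 1 and 0, against 0.721% and 1.08%. These counts describe 2 arrays and a list chosen with results known, and at these shares a count of 0 among 28 genes says little.

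To set each difference against the general scatter at its level, the middle 95% of the differences of the 500 measured genes nearest in mean level was taken. This range describes scatter between genes and does not stand in for replicates. Of the 28 genes, 7 (25%) lay above their range and 0 below it, where 2.7% and 2.67% of all measured genes did. The list was chosen with results known, so the choice itself can set its share apart from that of all genes. The 7 were RELN, FN1, THBS1 and TGFBI among the glycoproteins, the laminin chain LAMA5, the network collagen COL8A1 and the lysyl hydroxylase PLOD2. When each gene took the median of its probe sets, THBS1 and COL8A1 fell inside and 5 were left above. Of these 5, RELN, LAMA5 and TGFBI have 1 probe set each, so this setting could not change their differences. Without _x_at and _s_at probe sets, which left 18 genes, 4 lay above, RELN, TGFBI, COL8A1 and COL5A1. In that setting FN1, LAMA5 and PLOD2 were not measured, and THBS1 lay inside.

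**Figure D1:**
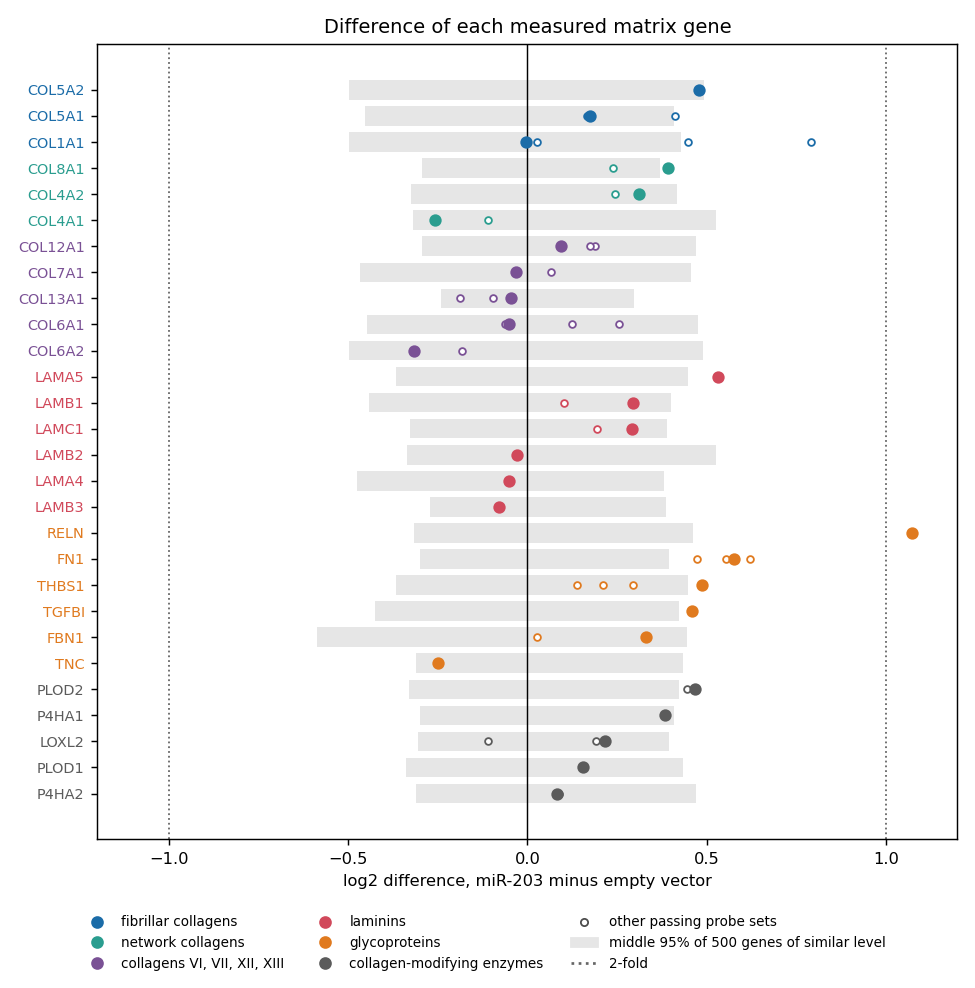
Log2 difference (miR-203 minus empty vector, x axis) of the 28 measured matrix genes (y axis, coloured by family); filled points are the brightest probe set, open points are other probe sets that passed the filter, grey bars are the middle 95% of the 500 genes nearest in level, and dotted lines mark 2-fold. RELN, at 1.07, is the point past the dotted line, and 7 filled points lie to the right of their grey bar and none (0 of 28) to the left.

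**Figure D2:**
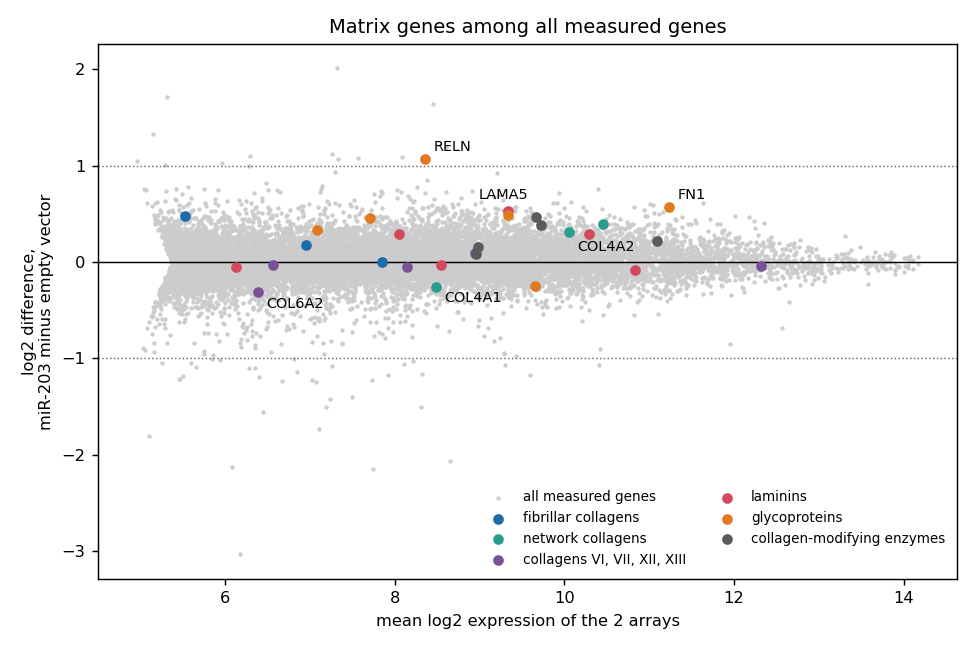
Log2 difference (y axis) against the mean log2 level of the 2 arrays (x axis) for all 13311 measured genes (grey) and the measured matrix genes (coloured by family); the dotted lines mark 2-fold. Scatter narrows with level, and RELN and FN1 lie at the upper edge of the grey cloud at their level.

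The glycoproteins had a family median of 0.47 over the 6 measured of 10, with 5 of the 6 above 0. This was the highest of the family medians by brightest probe set, but not under every setting. Without the level filter, which brings in 4 dim genes, the median of all 10 was 0.26, under the 0.31 of the network collagens, and without probe sets ending in _x_at and _s_at it was 0.33, under the 0.45 of the fibrillar collagens. Reelin (RELN), a large secreted glycoprotein best known for guiding neurons during brain development, was at 7.82 in the control line and 8.89 in the miR-203 line. Its difference of 1.07, or 2.10-fold, compared with -0.32 to 0.46 for genes of similar level. It rests on 1 probe set, so no second reading of the gene was available.

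The 250 bases before the RELN start are shown because reelin had the largest difference of the measured matrix genes. They lie at chr7:103989659-103989908 (GRCh38.p14, minus strand, RefSeq), and capitals mark the palindrome CACGTG, which holds ACGTG on both strands.
RELN: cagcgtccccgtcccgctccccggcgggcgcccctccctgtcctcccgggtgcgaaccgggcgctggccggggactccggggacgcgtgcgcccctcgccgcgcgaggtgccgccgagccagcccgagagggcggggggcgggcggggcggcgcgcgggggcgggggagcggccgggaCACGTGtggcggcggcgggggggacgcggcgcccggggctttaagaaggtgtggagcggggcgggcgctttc
The letters ACGTG, searched on both strands, occur in the same window of 18.5% of the 35116 promoter entries. They occur in 7 of the 30 matrix genes that have an entry, among them P4HA1 and PLOD2 further on.

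Fibronectin (FN1), a dimeric glycoprotein that integrins assemble into fibrils, was at 10.95 in the control line and 11.52 in the miR-203 line, a difference of 0.58. Its 5 probe sets above the filter level gave 0.47 to 0.62, all on the same side. These probe sets can share transcripts and even probes, so they are repeated readings of 2 RNA samples and not replicates. All 5 have names ending in _x_at or _s_at, and without such probe sets fibronectin was not measured.

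Thrombospondin-1 (THBS1), a matricellular protein that can activate latent TGF-beta, was at 9.09 and 9.58 in the control and miR-203 lines, a difference of 0.49. Its 4 passing probe sets ran from 0.14 to 0.49, with a median of 0.25, so the brightest was also the highest. TGFBI, an adhesive protein induced by TGF-beta, went from 7.48 to 7.94, a difference of 0.46 by 1 probe set. Both lay just above the range of genes of similar level, whose upper ends were 0.45 and 0.42. Fibrillin-1 (FBN1), the backbone of elastic microfibrils, was at 6.92 and 7.25, with probe sets at 0.33 and 0.027, both inside that range. Tenascin-C (TNC), a modular glycoprotein of tumour stroma and wound edges, went the other way, from 9.78 to 9.53, a difference of -0.25 by 1 probe set. Its range of genes of similar level was -0.31 to 0.43, so it lay inside, and it was the only measured glycoprotein of the 6 below 0.

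Among the 11 measured collagens the differences were divided, with 5 above 0 and 6 below and a median of -0.0039. The 5 include COL5A2, which passed only through the miR-203 array and so had to lie above 0. None of the 11 reached 1.5-fold in either direction (0 higher, 0 lower), where 0.721% of all measured genes were that much higher and 1.08% lower. At these shares a count of 0 among 11 genes says little. COL8A1 alone of them lay, by brightest probe set, outside the range of genes of similar level.

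Of the 5 fibrillar collagens 3 were measured, with a median of 0.17, or 0.085 without COL5A2, which passed the filter on 1 array only. COL5A1 encodes a chain of type V collagen, which sits inside type I fibrils and limits their diameter. It was at 6.87 and 7.04 in the control and miR-203 lines, and its 3 probe sets gave 0.17 to 0.41. COL5A2, the partner chain, was at 5.29 and 5.77, a difference of 0.48. As it passed only through the miR-203 array, its difference had to lie above 0. Its second probe set, under the level on both arrays, gave -0.069. COL1A1, a chain of type I collagen, was at 7.86 and 7.85, a difference of -0.0039 by its brightest probe set. Its other passing probe sets gave 0.026, 0.45 and 0.79, so the sign and size for COL1A1 depend on the probe set, and the median over the 4 was 0.24. The probe set at 0.45 passed only through the miR-203 array, so it had to lie above 0.

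The network-forming collagens had a median of 0.31 over 3 measured of 4 genes. COL8A1, a short-chain collagen of vessel walls and corneal basement membranes, was at 10.25 in the control line and 10.65 in the miR-203 line. Its difference of 0.39 lay above the -0.30 to 0.37 of genes of similar level, and its second passing probe set gave 0.24. The chains COL4A1 and COL4A2, which join into the main type IV collagen of basement membranes, differed in sign. COL4A1 went from 8.62 to 8.36, a difference of -0.26, with a second probe set at -0.11. COL4A2 went from 9.90 to 10.21, a difference of 0.31, with a second probe set at 0.24. Both probe sets of each gene lay on one side, and both genes stayed inside the range of genes of similar level, which was -0.32 to 0.53 for COL4A1 and -0.32 to 0.42 for COL4A2.

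These 2 genes are transcribed away from each other from a shared interval, printed because the pair differed in sign. The 126 bases between the 2 starts lie at chr13:110307158-110307283 (GRCh38.p14, RefSeq). They are written along the plus strand, the direction of COL4A2, with CCAAT and GGGCGG in capitals.
COL4A1-COL4A2 interval: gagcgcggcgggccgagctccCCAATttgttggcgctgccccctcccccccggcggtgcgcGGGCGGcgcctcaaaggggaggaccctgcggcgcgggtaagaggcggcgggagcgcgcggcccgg
A search of both strands found 1 CCAAT and 1 GGGCGG, which do not overlap. The 126 bases before the start hold CCAAT in 21.1% and GGGCGG in 34.6% of the 35116 promoter entries, so the presence of either is common.

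The remaining collagens, of types VI, VII, XII and XIII, were the family with a median below 0, at -0.045 over 5 measured of 6 genes. The lowest of all the measured matrix genes was COL6A2, a chain of the beaded-filament type VI collagen, which went from 6.54 to 6.23, a difference of -0.32, with a second probe set at -0.18. Its partner COL6A1 was at 8.17 and 8.11, a difference of -0.050, and its 4 passing probe sets ran from -0.062 to 0.25. The median of the 4 was 0.037, so no direction can be given for COL6A1. The 4 include a probe set at 0.12 that passed only through the miR-203 array. COL13A1, a transmembrane collagen, was at 12.34 and 12.29, with 3 probe sets from -0.19 to -0.045. COL7A1, the anchoring fibril collagen of skin, was at 6.59 and 6.56, with probe sets at -0.032 and 0.067, and so had no consistent sign. COL12A1, which decorates the surface of type I fibrils, was at 8.89 and 8.99, with 3 probe sets from 0.095 to 0.19. Of these 3, the probe set at 0.18 passed only through the miR-203 array.

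Laminins are trimers of an alpha, a beta and a gamma chain. The 6 measured chains fell into 3 above 0 and 3 below, with a median of 0.13. LAMA5, LAMB1 and LAMC1, the chains that together form the widespread laminin of mature basement membranes, were the 3 above 0. LAMA5 was at 9.07 in the control line and 9.61 in the miR-203 line, a difference of 0.53 by 1 probe set, above the -0.37 to 0.45 of genes of similar level. LAMB1 was at 7.90 and 8.20, with probe sets at 0.29 and 0.10. LAMC1 was at 10.14 and 10.44, with probe sets at 0.29 and 0.19. LAMB1 and LAMC1 were each inside their range.

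The other laminin chains had smaller differences, all 3 below 0 and inside the range of genes of similar level. LAMB3, a chain of the epithelial laminin that anchors hemidesmosomes, was at 10.88 and 10.80, a difference of -0.079 by 1 probe set. LAMB2, a beta chain of neuromuscular and kidney basement membranes, was at 8.56 and 8.53, a difference of -0.030. LAMA4, the alpha chain typical of vessel walls, was at 6.16 and 6.10, a difference of -0.052 by the 1 probe set of 5 that passed, and the other 4 lay under the filter level and ran down to -0.50. The laminin median rests on few chains and was 0.29 when the filter was raised to the 75th percentile, which removed LAMA4, or when _x_at and _s_at probe sets were left out, which left 3 chains.

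The collagen-modifying enzymes were the family with all of its genes measured, 5 of 5, and all 5 were above 0, with a median of 0.22. PLOD2, the lysyl hydroxylase that acts on collagen telopeptides and so sets the type of crosslink, went from 9.43 in the control line to 9.90 in the miR-203 line. Its probe sets gave 0.47 and 0.45, where genes of similar level spanned -0.33 to 0.42. P4HA1, the main catalytic subunit of the prolyl hydroxylase that stabilises the triple helix, was at 9.53 and 9.92, a difference of 0.38 inside its range of -0.30 to 0.41.

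The rest of the enzymes differed less. LOXL2, a secreted lysyl oxidase that crosslinks collagen, was at 10.98 and 11.20, a difference of 0.22, and its 3 passing probe sets ran from -0.11 to 0.22. PLOD1, the lysyl hydroxylase of the helical domain, was at 8.91 and 9.07, a difference of 0.16. P4HA2, the second catalytic prolyl hydroxylase subunit, was at 8.91 and 8.99, with probe sets at 0.083 and 0.089. Without _x_at and _s_at probe sets 2 of the 5 enzymes were left, PLOD1 and P4HA2, and the median was 0.12.

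The 250 bases before the starts of P4HA1 and PLOD2 are shown because these enzymes had the largest differences of the family and, as background, are both known hypoxia-induced genes. The windows are chr10:73096867-73097116 and chr3:146161185-146161434 (GRCh38.p14, minus strand, RefSeq), and capitals mark ACGTG on either strand, the core that hypoxia-inducible factors recognise.
P4HA1: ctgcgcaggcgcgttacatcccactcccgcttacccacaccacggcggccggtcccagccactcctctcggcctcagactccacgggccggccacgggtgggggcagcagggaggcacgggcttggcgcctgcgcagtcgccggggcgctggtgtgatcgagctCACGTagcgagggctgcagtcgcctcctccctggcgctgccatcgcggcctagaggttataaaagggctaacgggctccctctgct
PLOD2: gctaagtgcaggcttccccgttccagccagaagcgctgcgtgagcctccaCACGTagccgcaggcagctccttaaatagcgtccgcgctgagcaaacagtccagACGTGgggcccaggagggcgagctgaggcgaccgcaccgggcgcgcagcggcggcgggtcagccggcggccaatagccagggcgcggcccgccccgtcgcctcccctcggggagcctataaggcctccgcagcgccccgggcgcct
P4HA1 held 1 match and PLOD2 held 2, against 18.5% of promoter entries with any. A match is a description of the letters and not evidence of binding, and oxygen was not varied here.

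The 8 genes with a probe set that did not reach the filter level were COL1A2, COL3A1, COL4A5, COL6A3, THBS2, SPARC, POSTN and FBN2. None of their 21 probe sets reached the level on either array (0 of 21). By brightest probe set they ran from 2.79 to 5.01 in the control line and from 2.67 to 5.24 in the miR-203 line, with differences from -0.53 for FBN2 to 0.33 for COL3A1. Only measured genes entered the range of similar level, so all 8 were set against the same dimmest measured genes. Those spanned -0.64 to 0.61, a range that is not matched to the level of each of the 8. The genes nearest to the filter level were COL4A5, just outside at 4.93 and 5.24, and COL5A2, just inside at 5.29 and 5.77.

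**Figure D3:**
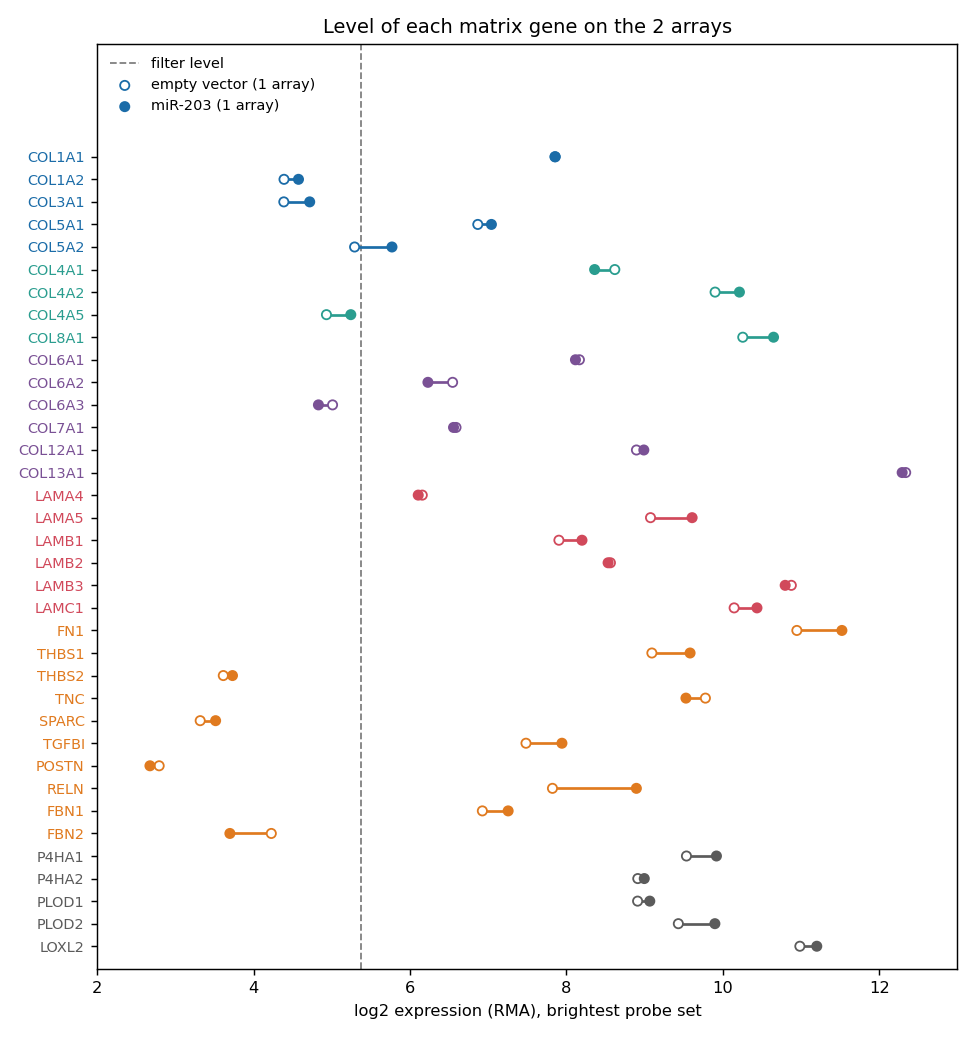
Log2 expression (x axis) of the 36 matrix genes with a probe set (y axis, coloured by family as in the plot of differences) in the control line (open) and the miR-203 line (filled), 1 array each; the dashed line is the filter level of 5.37. The 8 genes with both points left of the line were not counted as measured, and COL5A2 straddles it, with 5.29 and 5.77; levels of different genes are not comparable, since each has its own probes.

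Repeated readings of a gene on the same arrays gave the following. The matrix genes had 59 probe sets past the filter, of which 43 lay above 0 and 16 below, where 51% of all 23997 passing probe sets with 1 gene lay above 0. Among the 43, a probe set each of COL5A2, COL1A1, COL6A1 and COL12A1 passed only through the miR-203 array. Those probe sets had to lie above 0. Of the 18 matrix genes with several passing probe sets, 14 had all of them on one side, 11 above 0 and 3 below. This was 77.8%, against 52.7% of all 6286 such genes. The 11 above 0 include COL12A1, with 1 of the probe sets that had to lie above 0. A gene with a probe set at exactly 0 counts as not on one side. Of all passing probe sets 583 were at 0, and of those of the matrix genes 0 were. The list was also chosen with results known, so the 2 shares are not a like comparison. The 3 below were COL4A1, COL6A2 and COL13A1, and the 4 without a common sign were COL1A1, COL6A1, COL7A1 and LOXL2. The SD of the difference over the probe sets of a gene had a median of 0.10 in both sets of genes. These readings share their RNA, so they bear on probe behaviour and not on the reproducibility of the cell lines.

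Genes of the same pathway outside the list did not share one direction. Of 29 other collagen genes 10 were measured, with 2 above 0, 8 below and a median of -0.087. Of the 10, 0 reached 1.5-fold either way, where 0.721% of all measured genes were that much higher and 1.08% lower. The largest differences were 0.28 for COL9A1, whose control value lay under the filter level, 0.22 for COL18A1, the source of endostatin, and -0.21 for COL22A1. Of 9 other laminin and basement membrane genes 5 were measured, with 4 above 0 and 0 below and a median of 0.083. LAMC3 was at 0.26 from an control value under the filter level, perlecan (HSPG2) at 0.12 and nidogen-1 (NID1) at 0.083.

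Of 39 other matrix glycoproteins 21 were measured, with 8 above 0, 13 below and a median of -0.070. Of the 13, THBS3 and TNR passed the filter only through the control array and so had to lie below 0, and without them 11 of 19 lay below, with a median of -0.064. LTBP1, which holds latent TGF-beta in the matrix, went from 8.85 to 9.33, with probe sets at 0.48 and 0.051. IGFBP7, a secreted protein that binds insulin-like growth factors, went from 11.77 to 12.25, with probe sets at 0.48 and 0.28. ECM1 went from 7.32 to 7.64, a difference of 0.32. LTBP1 and IGFBP7 lay above the range of genes of similar level and ECM1 inside it.

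Of 22 other collagen biosynthesis genes 19 were measured, with 8 above 0, 10 below and a median of -0.00021. One of the 8, P4HA3, passed only through the miR-203 array. LOXL1, a lysyl oxidase needed for elastic fibres, was the largest of these, going from 7.66 to 6.84, a difference of -0.82 or 1.77-fold lower, where genes of similar level spanned -0.46 to 0.52. LOXL1 had 1 passing probe set. It was the 1 gene past 1.5-fold in these further lists, where 0.721% of all measured genes were that much higher and 1.08% that much lower. LOX, the founding member of that enzyme family, was at -0.40 and -0.069 by 2 probe sets, while LOXL2 was above 0 by its brightest probe set. BMP1, the protease that trims procollagen, had a brightest probe set at 0.48, above the 0.46 at the upper end of its range of genes of similar level. Its 5 passing probe sets ran from -0.32 upwards.

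Of 22 matrix receptors 17 were measured, with 11 above 0, 6 below and a median of 0.088. Of the 17, 0 were past 1.5-fold, where 0.721% of all measured genes were that much higher and 1.08% lower. The integrin chains ITGB4, a partner in the laminin receptor of hemidesmosomes, and ITGB3 were at 0.53 and 0.46 by their brightest probe sets and at 0.042 and 0.080 by their second. By brightest probe set these 2 of the 17 receptors (11.8%) lay above the range of genes of similar level, where 2.7% of all measured genes did. VLDLR, one of the receptors of reelin, went from 5.55 to 5.94, a difference of 0.39 by 1 probe set. LRP8, the other reelin receptor, named because of reelin and after its value was seen, went from 8.75 to 9.13, with 3 probe sets from 0.18 to 0.38. Both reelin receptors were inside the range of genes of similar level.

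**Figure D4:**
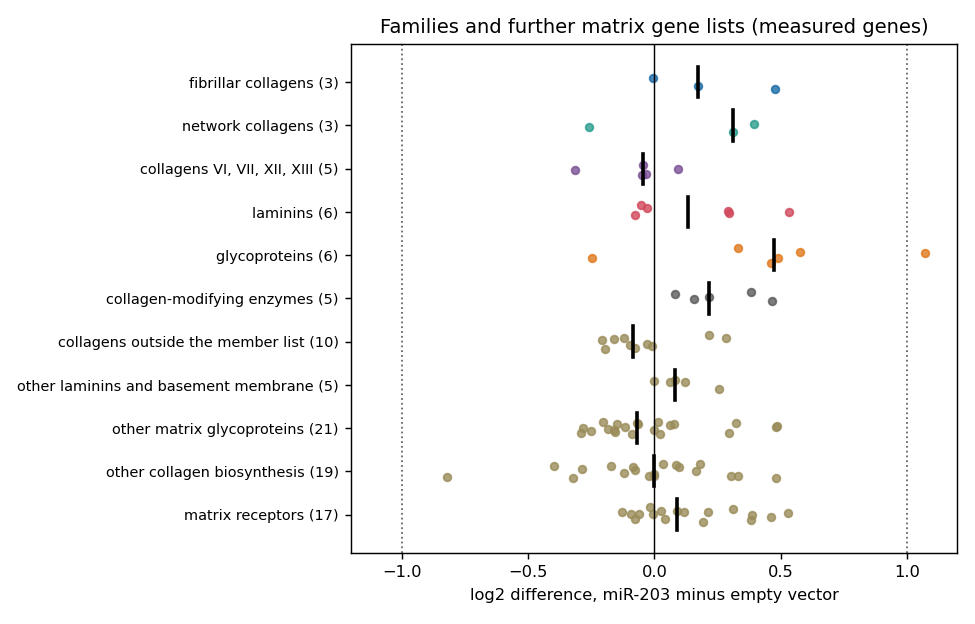
Log2 difference (miR-203 minus empty vector, x axis) of the measured genes of each matrix family and of 5 further matrix gene lists (y axis, number of measured genes in brackets); points are genes and black bars medians, and dotted lines mark 2-fold. The glycoproteins have a median of 0.47, which is not the highest without the filter or without _x_at and _s_at probe sets, and all 5 collagen-modifying enzymes lie above 0, while the further lists have medians from -0.087 to 0.088.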

How the data were processed

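The authors deposited 1 log2 value for each Affymetrix probe set, 54675 on each of 2 arrays. RMA is named in the submitters' processing notes, without a version, and the log2 scale was inferred from their range, 1.37 to 14.23. Sorted from low to high, the arrays differed nowhere by more than 0.095, so a shift of all transcripts would have been removed. Per the platform annotation, 41091 probe sets had 1 gene symbol, 1801 had several and 11721 were not listed, beside 62 controls; only the first kind was used, with symbols updated to RefSeq. Each gene took its brightest probe set, and 13311 of 19775 genes passed the level filter of 5.37. Each matrix gene measured was named, as were the 3 largest differences of each further list. No test was made, as each group had 1 array; the number of arrays limits the precision. The genes, lists and rules were chosen with earlier results of these data known. The counting at 2-fold was tested on simulated data, with planted differences all larger than any of the matrix genes. It does not bear on smaller differences. Python 3.11.15, pandas 2.3.3 and statsmodels 0.14.6 were used. Alternatives were the median over probe sets, leaving out _x_at and _s_at probe sets, other filters, loess (span 0.3), centring, raising low values to the filter level, and thresholds of 1.5-fold and 3-fold.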

Additional observations from a re-analysis of the deposited data

How the results depend on the processing

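No paired analysis was possible because there was a single array for each line, and no array could be left out. The count of 1 gene at least 2-fold higher was 0 at 3-fold and, as an alternative chosen after seeing the data, 0 without RELN, and it was 1 under the other alternatives run. RELN has 1 probe set, not an _x_at or _s_at one, that lies above both filter levels on both arrays. The probe set and filter settings and the raising of low values therefore could not remove it. The count of 0 lower held under all alternatives run. The median over the measured matrix genes, 0.20, ran from 0.17 to 0.25. Family medians that moved by more than 0.10, the median SD over probe sets of a gene, were those of the fibrillar collagens, at 0.45 without _x_at and _s_at probe sets (2 genes left) and -0.0039 with a stricter filter at the 75th percentile (COL1A1 alone left), the laminins, at 0.29 under each of these settings, and the glycoproteins, at 0.36 with the median over probe sets, 0.33 without _x_at and _s_at probe sets and 0.26 without a filter. The count of 7 above the range of genes of similar level was 5 with the median over probe sets and 4 without _x_at and _s_at probe sets, and the count of 0 below was 1 (FBN2) without a filter, all added after seeing the data. The median of collagens VI, VII, XII and XIII turned to 0.017 with the median over probe sets and 0.031 without _x_at and _s_at probe sets. The loess trend and centring changed the sign of 0 of 28 genes, and the median over probe sets that of 3, COL1A1, COL6A1 and COL7A1. Signal near the filter level limits what can be said of COL5A2 and of the 8 dimmer genes.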

Other observations

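In the RefSeq order of protein-coding genes, 3 pairs of the matrix genes are direct neighbours. The pair COL4A1 and COL4A2 differed in sign, at -0.26 and 0.31. The pair COL6A1 and COL6A2 was at -0.050 and -0.32 by the brightest probe sets. In the pair COL3A1 and COL5A2 the former was not measured and the latter was at 0.48.

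The family of latent TGF-beta binding proteins, named here after their values were seen, was divided. LTBP1 was at 0.48 and LTBP3 at 0.29, whereas LTBP2 was at -0.29 and LTBP4 at -0.15. The probe sets of LTBP3 ran from 0.026 to 0.39 and those of LTBP4 from -0.18 to -0.049, and LTBP2 had probe sets at -0.29 and -0.24. The lysyl oxidases were likewise divided, with LOXL1 at -0.82, LOX at -0.40, LOXL3 listed with equal values on the 2 arrays (6.38 and 6.38), LOXL4 at 0.16 and LOXL2 at 0.22. The second probe set of LOXL4 gave -0.16. Other collagen biosynthesis genes outside the main list were divided too. P4HB, the shared beta subunit of prolyl hydroxylase, was at -0.00021, the collagen chaperone SERPINH1 at 0.098 and the hydroxylase PLOD3 at -0.17. Larger differences were those of MIA3 at 0.33, P3H1 at 0.30, P3H3 at -0.29 and FKBP10 at -0.32. No test was made of any of these differences.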
